A study of Homo sapiens with 24 samples.

Results

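The Schlafen (SLFN) genes and the paired genes SAMD9 and SAMD9L encode proteins, several of which restrict viruses by acting on tRNA or on translation. The 6 genes described here are SLFN5, SLFN11, SLFN12, SLFN13, SAMD9 and SAMD9L. They were chosen by name as restriction factors, with earlier results of these data known. Each is 1 row among the 60609 gene rows of the table. Polyadenylated RNA was sequenced from A549, a human lung adenocarcinoma cell line. Cells were transfected with a pool of siRNAs against BOP1 (siBOP1), a factor needed to mature the large ribosomal subunit, or with firefly luciferase siRNA (siFLuc), which has no human target. After 48 h of transfection they received interferon beta (IFN) at 1000 units/mL or were mock treated, and were harvested 8 h or 12 h later. The 2 siRNAs, 2 treatments and 2 times make 8 groups of 3 libraries, 24 in all, and every cell in the study was transfected. No label says whether the libraries of a group came from separate cultures, so the tests measure the spread between libraries, which may be technical.

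Type I interferon binds its receptor at the cell surface and activates a complex of transcription factors, which binds a DNA element called the interferon-stimulated response element (ISRE). Among the genes it turns on are several that cut RNA or block translation. SLFN11 and SLFN13 cleave tRNA, and SLFN11 can lower the synthesis of proteins whose mRNAs use rare codons, such as the leucine codon TTA. SLFN12 joins the phosphodiesterase PDE3A and becomes an RNase when certain small molecules hold the 2 proteins together. SLFN5 lacks that cleavage activity and restricts viral transcription. SAMD9 and SAMD9L block translation in poxvirus infection and are known for cleaving a phenylalanine tRNA.

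Expression is given as TPM, the share of a transcript after correction for its length, scaled to a total of 1000000 in every library, so levels of different genes may be compared. TPM keeps no sequencing depth, and a TPM change is a change in share. BOP1 itself lay between 32.4 and 78.8 TPM in the 12 siFLuc libraries (median 57.6) and between 10.0 and 19.5 in the 12 siBOP1 libraries (median 15.8), with no overlap. The 6 epithelial marker genes summed to 5729 to 8508 TPM, although EPCAM was low (1.92 to 5.48 TPM). Among leukocyte markers CD3E was at 0 in all 24 libraries and PTPRC in 20, while CD68, which is not restricted to leukocytes, lay between 38.5 and 402 TPM. The endothelial markers summed to at most 0.426 TPM and the fibroblast markers to 5.71 to 19.9, mostly COL1A1.

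The table numbers the columns of each group 1, 2 and 4, whereas the labels number the replicates 1 to 3, so the columns numbered 4 were assigned to their group only. Within its group the library numbered 4 had the lowest SAMD9 in 8 of 8 groups, the lowest SLFN5 in 7 and the lowest SAMD9L in 7. It had the highest SLFN11 in 5 groups and the lowest in 1. For SLFN13 it was highest in 4 and lowest in 2, and for SLFN12 highest in 3 and lowest in 1. Over all genes the ranks of these libraries were not counted. Results that change without these libraries, or when the column number enters the fit as a block (a column number block), are given both ways.

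IFN raised 3 of the 6 genes, SAMD9L, SAMD9 and SLFN5, in both siRNA arms and at both times. SLFN11 and SLFN13 had higher mean levels with IFN in every arm, and neither passed the test in any of them. SLFN12 was close to 0 throughout. A gene was called where its adjusted p from limma, a linear model fitted to log2(TPM + 1) of the 16062 genes that reached 1 TPM in 3 or more libraries, was under 0.05, and 5 of the 6 genes could be tested. In siFLuc cells at 8 h, 3 of the 5 were called higher and 0 lower, where 5.77% of all genes tested were called higher and 5.07% lower. The count was also 3 of 5 in siBOP1 cells at 8 h (all genes, 5.99% higher and 9.11% lower), in siFLuc cells at 12 h (7.06% and 6.43%) and in siBOP1 cells at 12 h (7.17% and 7.58%). SAMD9L passed the filter through its IFN libraries, where it is high, so its calls in these counts are not independent of the filter. The 4 comparisons set different libraries against each other, but all use 1 estimate of spread per gene from the 24 libraries. The 4 counts are therefore not independent. In bulk RNA more cells with a transcript and more RNA per cell cannot be told apart.

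**Figure D1:**
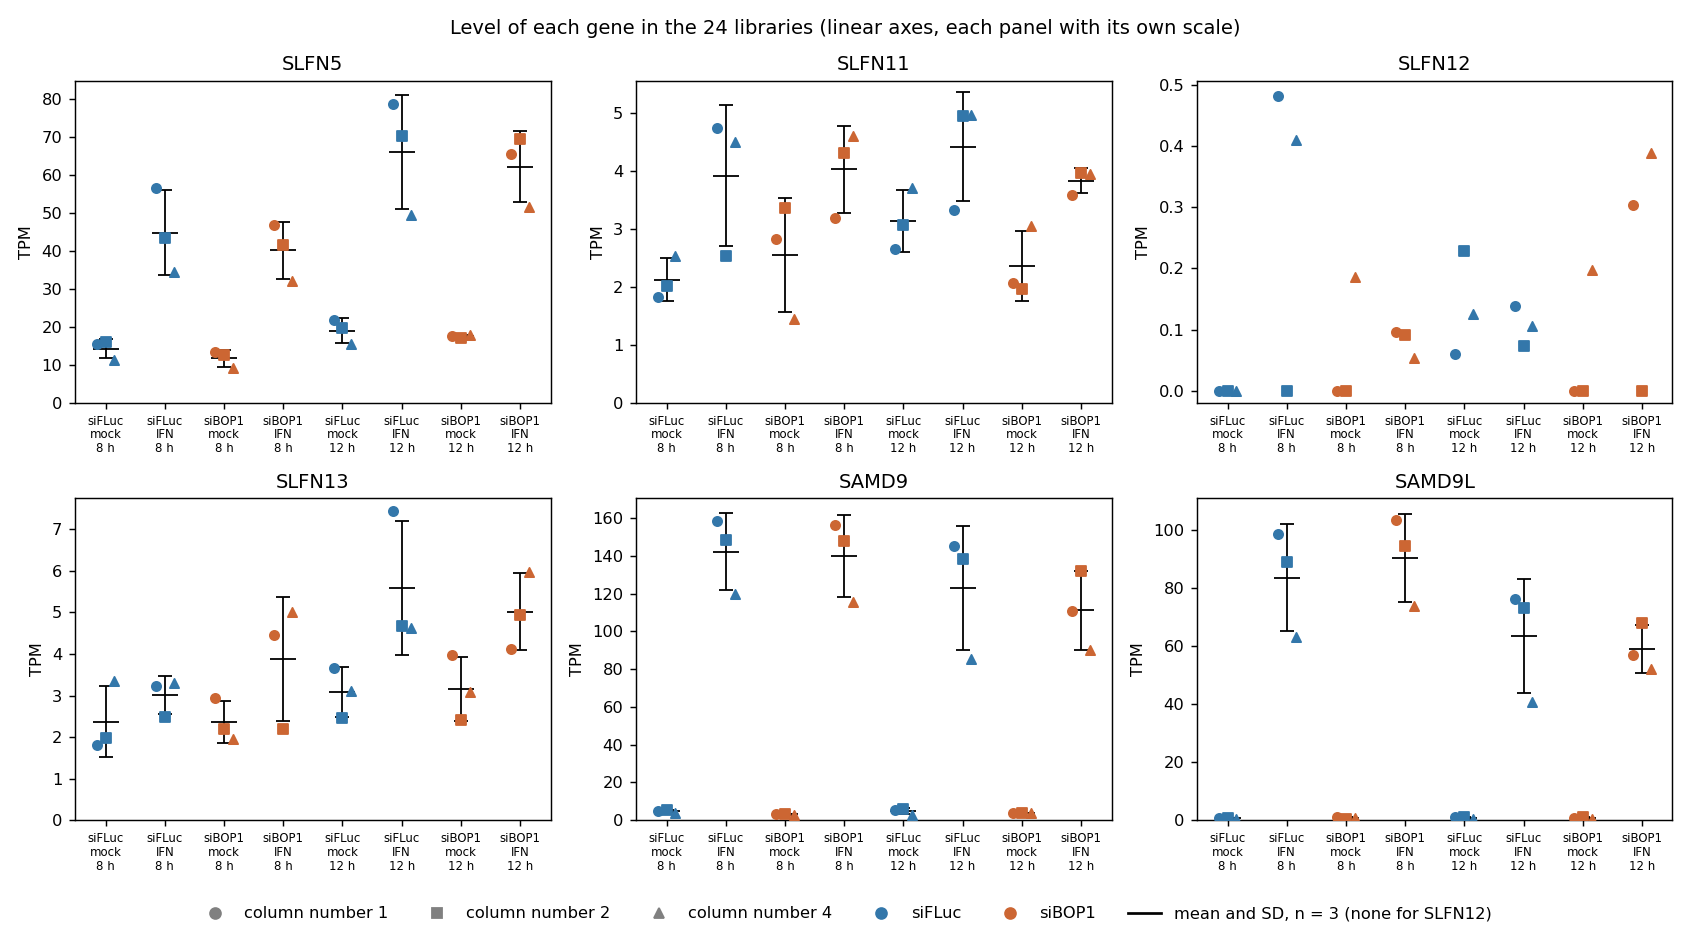
TPM of the 6 genes (y axis, linear, 1 scale per panel) in the 8 groups (x axis). Points are libraries, shaped by column number and coloured by siRNA, and the black bars are the mean and SD of 3 libraries (left out for SLFN12, which is listed at 0 in 9 of 24 libraries). SLFN5, SAMD9 and SAMD9L are higher in all 12 IFN libraries than in all 12 mock libraries, while the IFN and mock ranges of SLFN11 and SLFN13 overlap.

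SAMD9 and SAMD9L are neighbours on chromosome 7, both on the minus strand, at chr7:93099513-93118023 and chr7:93130055-93148369 (GENCODE 29, GRCh38), and neither overlaps another annotated gene. Since both responded to IFN, the 200 bases before the start of each gene are shown from the RefSeq promoter table (GRCh38.p14), 5′ to 3′ on the gene's strand, at chr7:93117980-93118179 for SAMD9 and chr7:93148386-93148585 for SAMD9L.
SAMD9: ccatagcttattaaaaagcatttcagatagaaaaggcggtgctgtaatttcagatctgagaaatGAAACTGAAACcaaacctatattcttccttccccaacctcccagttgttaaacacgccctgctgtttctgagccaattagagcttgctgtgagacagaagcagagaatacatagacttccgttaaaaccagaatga
SAMD9L: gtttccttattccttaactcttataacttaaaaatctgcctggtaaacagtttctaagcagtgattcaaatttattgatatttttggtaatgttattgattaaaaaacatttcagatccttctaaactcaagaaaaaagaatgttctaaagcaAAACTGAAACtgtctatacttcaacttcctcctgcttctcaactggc
The capitals in the SAMD9 sequence cover a match to the ISRE core GAAANNGAAA, 136 to 127 bases before the start, and a run of 10 bases, AAACTGAAAC, that overlaps it and begins 1 base later. The same 10 bases stand in capitals in the SAMD9L sequence, 47 to 38 bases before its start, where the letters around them do not complete the ISRE core. The search covered both strands of the 300-base windows, from 250 bases before to 50 after the start. The ISRE core occurs in 3.57% of the 35116 promoters of the table and the 10-base run in 0.157%. That run was picked after the sequences were seen. It is the 1 of the 3 longest runs shared by the 2 windows that lies at the ISRE match. Its overlap with that match was therefore set by the choice. The other shared runs occur in 0.0626% and 0.0940% of the promoters and are not marked. A match to these letters is a description and does not show binding.

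SAMD9L was at most 1.10 TPM in every mock library and at least 40.8 TPM in every IFN library. In siFLuc cells at 8 h its levels were 0.818, 0.685 and 0.380 TPM in the mock libraries (numbers 1, 2 and 4) and 98.7, 88.9 and 63.1 TPM with IFN. With BOP1 siRNA at 8 h they were 1.10, 0.610 and 0.844 TPM in mock and 103, 94.4 and 73.7 TPM with IFN. All IFN libraries lay far above all mock libraries, and the library numbered 4 was the lowest of the IFN libraries in both arms. At 12 h the mock levels were 0.979, 0.956 and 0.347 TPM in siFLuc and 0.906, 1.04 and 0.444 TPM in siBOP1 cells. With IFN at 12 h they were 76.4, 73.3 and 40.8 TPM in siFLuc and 57.0, 68.0 and 52.0 TPM in siBOP1 cells. The separation of mock and IFN libraries was therefore complete at 12 h as well.

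The log2 fold change of SAMD9L TPM + 1 with IFN was 5.68 in siFLuc and 5.62 in siBOP1 cells at 8 h, and 5.16 and 5.07 at 12 h (SE 0.23 for each, limma adjusted p at most 2.52e-13). Since its mock level is near the pseudocount of 1, these values understate the change. On mean TPM without a pseudocount, SAMD9L was 133-fold higher with IFN in siFLuc and 106-fold in siBOP1 cells at 8 h, and 83.5-fold and 74.0-fold at 12 h. By log2 fold change it ranked 21st to 32nd of the 16062 genes in the 4 comparisons.

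SAMD9 was present before IFN and rose to the highest level of the 6 genes. At 8 h in siFLuc cells its levels were 5.08, 5.55 and 4.10 TPM in mock and 159, 148 and 120 TPM with IFN. At 8 h in siBOP1 cells they were 3.34, 3.48 and 2.73 TPM in mock and 156, 148 and 115 TPM with IFN. The IFN levels of the 2 arms thus lay in the same range while the mock levels did not. At 12 h the levels in siFLuc cells were 5.66, 6.03 and 2.97 TPM in mock and 145, 139 and 85.2 TPM with IFN. At 12 h in siBOP1 cells they were 3.92, 3.94 and 3.69 TPM in mock and 111, 132 and 90.4 TPM with IFN. Mock and IFN libraries did not overlap in any arm. The log2 fold change with IFN was 4.60 in siFLuc and 5.07 in siBOP1 cells at 8 h, and 4.40 and 4.51 at 12 h (SE 0.21, limma adjusted p at most 7.33e-13). The ratio of mean TPM was 29.0 and 44.0 at 8 h and 25.2 and 28.8 at 12 h, in siFLuc and siBOP1 cells respectively, and SAMD9 ranked 35th to 44th by log2 fold change.

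The ratio between the 2 paralogues was lower with IFN. At 8 h in siFLuc cells the ratio of SAMD9 to SAMD9L TPM was 6.21, 8.10 and 10.8 in the mock libraries and 1.61, 1.67 and 1.89 with IFN. With BOP1 siRNA at 8 h it was 3.03, 5.70 and 3.23 in mock and 1.51, 1.57 and 1.57 with IFN. No IFN library reached the lowest mock ratio of its arm, and the IFN libraries varied far less among themselves than the mock ones. At 12 h its geometric mean went from 6.78 to 1.96 in siFLuc and from 5.15 to 1.87 in siBOP1 cells. Mock and IFN ratios did not overlap in any of the 4 arms, and the exact permutation test gave p = 0.1 in each (two-sided, 3 against 3 libraries), the smallest it allows. SAMD9L is the divisor and is at most 1.10 TPM in mock cells, so the mock ratios rest on a low value.

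SLFN5, at chr17:35243036-35273655 on the plus strand, rose by a smaller factor from a higher start. At 8 h in siFLuc cells its levels were 15.4, 16.0 and 11.4 TPM in mock and 56.6, 43.5 and 34.4 TPM with IFN. With BOP1 siRNA at 8 h they were 13.5, 12.6 and 9.16 TPM in mock and 46.8, 41.6 and 32.0 TPM with IFN. Again the libraries numbered 4 were the lowest in each of these groups, yet every IFN library exceeded every mock library. At 12 h in siFLuc cells the levels were 21.9, 19.7 and 15.5 TPM in mock and 78.6, 70.3 and 49.4 TPM with IFN. At 12 h in siBOP1 cells they were 17.7, 17.1 and 17.9 TPM in mock and 65.5, 69.5 and 51.6 TPM with IFN. The log2 fold change with IFN was 1.57 and 1.69 at 8 h and 1.73 and 1.76 at 12 h, in siFLuc and siBOP1 cells (SE 0.20, limma adjusted p at most 8.34e-06). This corresponds to ratios of mean TPM of 3.14 to 3.54. Its rank by log2 fold change was between 239 and 266 of 16062.

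**Figure D2:**
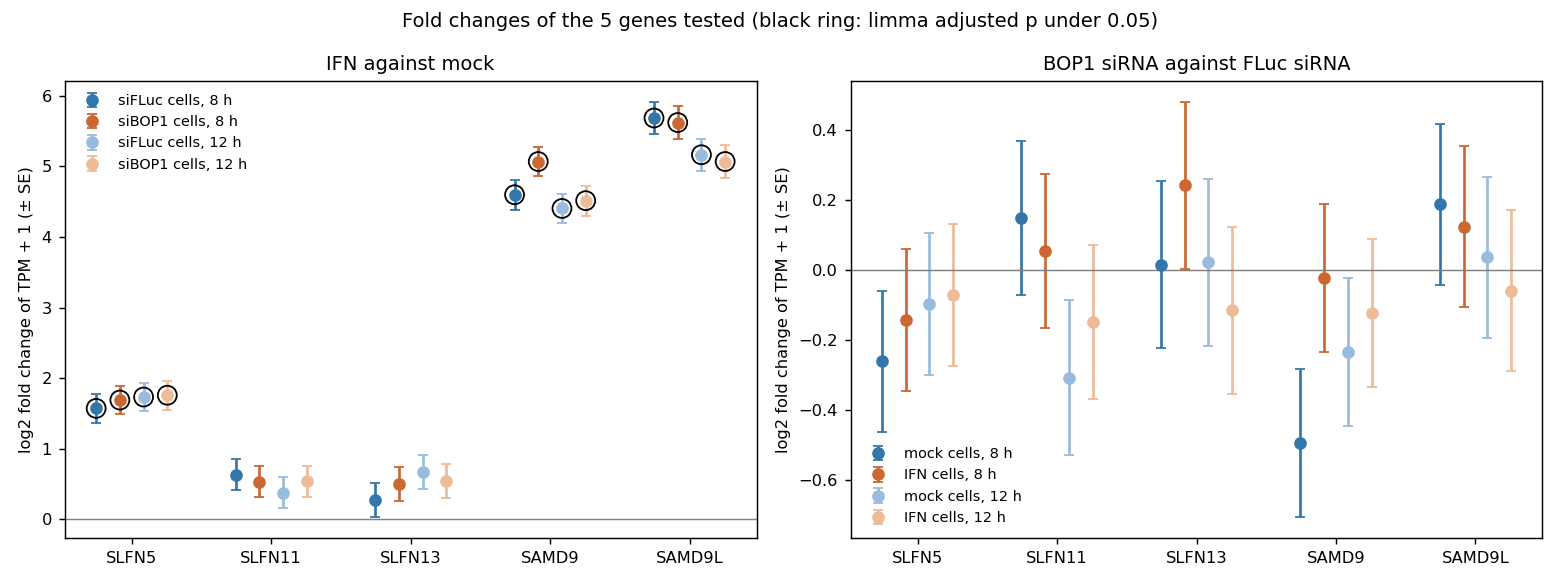
Left, log2 fold change of TPM + 1 (y axis) with IFN against mock for the 5 genes tested (x axis). Right, the same for BOP1 siRNA against firefly luciferase siRNA. Points are limma estimates with bars of ± 1 SE, 1 per siRNA arm or treatment and time, and a black ring marks an adjusted p under 0.05. SLFN5, SAMD9 and SAMD9L are ringed in all 4 IFN comparisons and no point is ringed on the right.

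SLFN11 and SLFN13 lie in the Schlafen cluster of chromosome 17, both on the minus strand, at chr17:35350305-35373701 and chr17:35435096-35448837. Their coding sequences share 571 stretches of 50 bases, 21.5% of those in SLFN11 and 21.6% of those in SLFN13, and the longest identical run is 516 bases, from base 1438 to base 1953 of both. Its first 150 bases, from the GENCODE 29 transcripts, show what short reads from the 2 genes have in common.
SLFN11 and SLFN13: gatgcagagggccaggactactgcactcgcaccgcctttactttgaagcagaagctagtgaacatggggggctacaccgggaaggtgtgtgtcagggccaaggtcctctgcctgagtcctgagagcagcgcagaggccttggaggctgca
Reads from such stretches cannot be assigned by sequence, and how they were divided is not given in the sources used here, so the separate values of the 2 genes are uncertain. They also share 35 stretches with SLFN12L, which was near 0. SLFN5, SAMD9 and SAMD9L share no stretch of 50 coding bases with another gene.

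SLFN11, the tRNA-cleaving protein, was low in all groups. In siFLuc cells its levels at 8 h were 1.82, 2.01 and 2.54 TPM in mock and 4.74, 2.53 and 4.49 TPM with IFN. At 12 h they were 2.66, 3.06 and 3.71 TPM in mock and 3.33, 4.95 and 4.97 TPM with IFN. Mock and IFN libraries overlapped at both times, at 8 h only because the mock library numbered 4 was just above the IFN library numbered 2. In siBOP1 cells the levels at 8 h were 2.83, 3.36 and 1.45 TPM in mock and 3.18, 4.31 and 4.61 TPM with IFN, and at 12 h 2.06, 1.96 and 3.06 TPM in mock and 3.59, 3.97 and 3.95 TPM with IFN, where the groups did not overlap.

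The log2 fold change of SLFN11 with IFN was 0.63 and 0.53 at 8 h and 0.38 and 0.54 at 12 h, in siFLuc and siBOP1 cells (SE 0.22, limma adjusted p 0.0766, 0.114, 0.293 and 0.112). The median change of all genes with IFN in siBOP1 cells at 8 h was -0.14 (log2) on the TPM scale, -0.01 after median-of-ratios rescaling and -0.08 after quantile normalization, and its part in the calls of SLFN11 was not tested. With median-of-ratios rescaling SLFN11 was called at 8 h in both arms (0.70 and 0.66, adjusted p 0.0376 and 0.0453), as it was after quantile normalization (0.70 and 0.68, adjusted p 0.0360 and 0.0357). The siFLuc call at 8 h was also made under the column number block (adjusted p 0.0488) and without the IFN library numbered 2 (0.85, adjusted p 0.0225). The change at 8 h in siBOP1 cells came to 0.21 in the libraries numbered 1 and 2 alone. SLFN11 was not called at 12 h in any alternative.

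SLFN13, the other tRNA-cleaving member, had a similar level. Its levels in siFLuc cells at 8 h were 1.80, 1.97 and 3.35 TPM in mock and 3.22, 2.48 and 3.31 TPM with IFN, so that the highest of the 6 was a mock library. At 12 h they were 3.67, 2.47 and 3.10 TPM in mock and 7.45, 4.68 and 4.62 TPM with IFN, with no overlap. In siBOP1 cells the levels at 8 h were 2.94, 2.20 and 1.96 TPM in mock and 4.46, 2.19 and 5.00 TPM with IFN, and at 12 h 3.97, 2.41 and 3.10 TPM in mock and 4.13, 4.95 and 5.97 TPM with IFN. The IFN library numbered 2 fell among the mock values at 8 h, and the groups did not overlap at 12 h. The log2 fold change was 0.27 and 0.50 at 8 h and 0.67 and 0.54 at 12 h (SE 0.24, limma adjusted p 0.560, 0.180, 0.0680 and 0.146). The 8 h value in siFLuc cells ranged from 0.15 without the mock library numbered 1 to 0.47 without the mock library numbered 4, and it was not called in either fit.

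SLFN13 was called in siFLuc cells at 12 h under the column number block (adjusted p 0.0217), under a block of the labelled replicate number, which holds only the 16 libraries numbered 1 and 2 (0.78, adjusted p 0.0316), and after median-of-ratios rescaling (0.72, adjusted p 0.0479). The same 16 libraries without a block gave the same 0.78 and no call. Its call at 8 h in siBOP1 cells was made without the IFN library numbered 2 (0.78, adjusted p 0.0391), and its change was 0.23 in the libraries numbered 1 and 2 alone. Reads assigned to one of these genes in place of the other alter the sum of their TPM only through the difference in transcript length. That sum went from 4.40 to 6.78 TPM in siFLuc and from 4.78 to 7.81 TPM in siBOP1 cells at 8 h, and from 6.20 to 9.99 and from 5.46 to 8.81 TPM at 12 h (geometric means of 3 libraries). Mock and IFN sums overlapped in siFLuc cells at 8 h (exact permutation p = 0.2, two-sided) and in no other arm (exact p = 0.1, the smallest possible).

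The promoter of SLFN11 held no ISRE core. The 200 bases before its start, at chr17:35373622-35373821 on the minus strand (RefSeq, GRCh38.p14), are shown because they hold the core of another element of interferon signalling, TTCNNNGAA, called the gamma-activated site (GAS).
SLFN11: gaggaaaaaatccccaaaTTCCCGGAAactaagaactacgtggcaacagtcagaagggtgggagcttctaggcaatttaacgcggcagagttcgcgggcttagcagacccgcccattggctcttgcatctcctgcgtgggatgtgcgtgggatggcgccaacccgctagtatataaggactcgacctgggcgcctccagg
The capitals mark the GAS core, 182 to 174 bases before the start. This core, which reads alike on both strands, occurs in 7.66% of the 35116 promoters. The promoter of SLFN12 held neither core. Of the 6 genes 4 had an entry in the promoter table, and SLFN5 and SLFN13 had none.

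SLFN12, at chr17:35411060-35433283 on the minus strand, never reached 1 TPM and was not tested. It was listed at 0 in 9 of 24 libraries, among them all 3 siFLuc mock libraries at 8 h, and its highest value was 0.482 TPM, in an IFN library. Its 12 mock libraries lay between 0 and 0.228 TPM (median 0) and its 12 IFN libraries between 0 and 0.482 TPM (median 0.101). PDE3A, its partner in the drug-induced complex, had group means between 1.47 and 2.65 TPM and was not called with IFN. The other 3 Schlafen genes of the table, SLFN12L, SLFN14 and SLFNL1, had group means of at most 0.125 TPM and could not be tested.

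The summed level of the 6 genes was 24.3 ± 2.27 TPM (SD, n = 3) in mock and 278 ± 49.0 TPM in IFN siFLuc cells at 8 h. In siBOP1 cells at 8 h it was 20.8 ± 3.91 and 279 ± 43.0 TPM. At 12 h it was 31.0 ± 4.73 and 263 ± 67.9 TPM in siFLuc and 27.8 ± 1.18 and 241 ± 37.1 TPM in siBOP1 cells. The leading gene differed between treatments. SLFN5 made up 56.6% to 63.2% of the sum in the 4 mock groups and 14.4% to 25.8% in the 4 IFN groups (group means), whereas SAMD9 went from 13.9% to 20.1% in mock to 45.9% to 51.4% with IFN. SAMD9L went from 2.37% to 4.19% in mock to 23.9% to 32.4% with IFN. Within either treatment, SAMD9 and SAMD9L followed each other more closely with IFN (Pearson r = 0.94 over 12 libraries) than in mock (r = 0.29 over 12 libraries). These libraries share groups and column numbers, and the mock level of SAMD9L is low, so the values are descriptions.

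**Figure D3:**
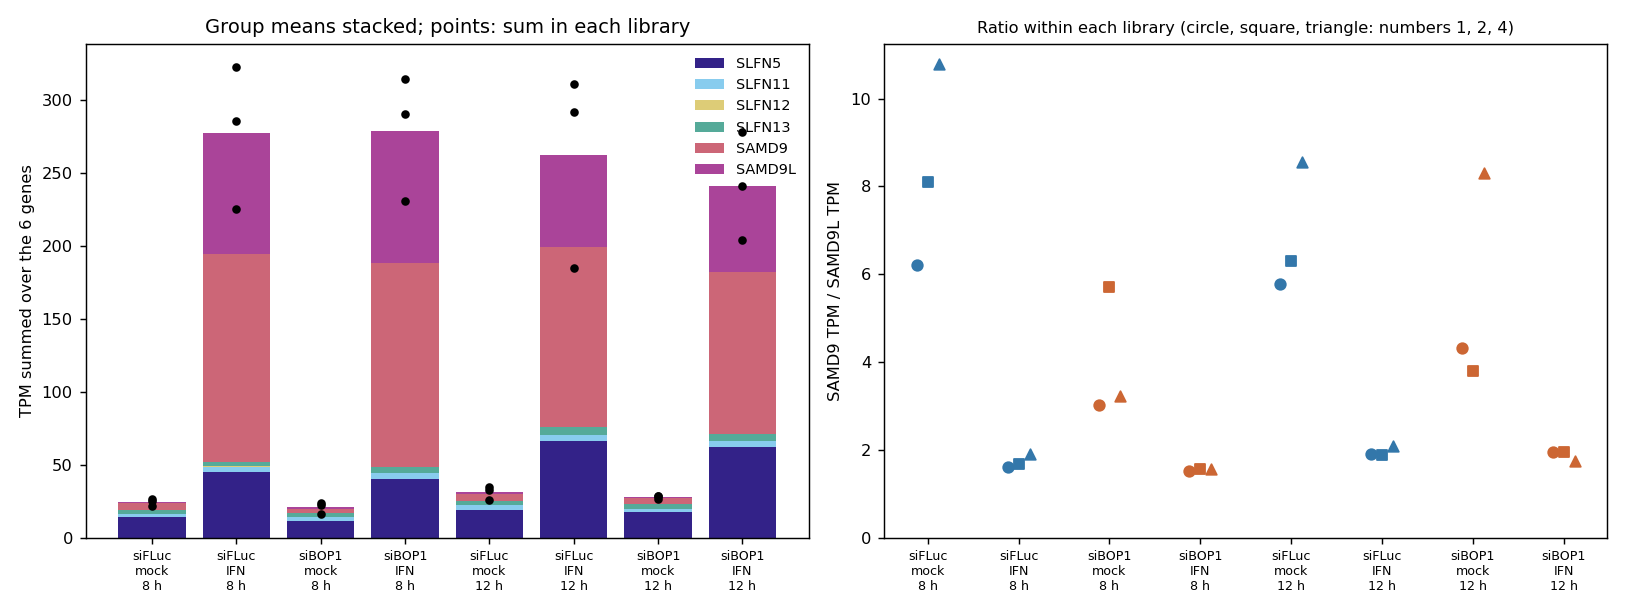
Left, TPM summed over the 6 genes (y axis) in the 8 groups (x axis), with stacked bars for the group means of each gene and points for the sum in each of 3 libraries. Right, SAMD9 TPM divided by SAMD9L TPM within each library (y axis), shaped by column number and coloured by siRNA. The sums are between 16.3 and 34.9 TPM in mock and between 185 and 322 in IFN libraries, and the ratio is between 1.51 and 2.09 in all 12 IFN libraries and at least 3.03 in all 12 mock libraries.

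None of the 5 tested genes was called with BOP1 siRNA in the fit of all 24 libraries without a block. In mock cells at 8 h, 0 of 5 were called where 2.16% of all genes were. The count was also 0 of 5 in IFN cells at 8 h (all genes, 2%), in mock cells at 12 h (1.6%) and in IFN cells at 12 h (0.66%). SAMD9L passed the filter through its IFN libraries, and with only the groups compared 4 members were tested in mock cells, with 0 called. By unadjusted limma p under 0.05 the numbers were 1, 0, 0 and 0. The level ranges of siBOP1 and siFLuc libraries overlapped for each of the 6 genes in each of the 4 comparisons, with 1 exception, SAMD9 in mock cells at 8 h. The share over all genes was not computed for the overlap or for the unadjusted p. Neither count is read as a result about the members.

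In mock cells at 8 h SAMD9 was at 3.34, 3.48 and 2.73 TPM with BOP1 siRNA, all lower than the 5.08, 5.55 and 4.10 TPM with siFLuc. The log2 fold change was -0.50 (SE 0.21, limma adjusted p 0.302). Under the column number block its adjusted p was 0.0142, under the labelled number block 0.0161 (-0.52), and in the libraries numbered 1 and 2 alone 0.0158 (-0.52). In mock cells at 12 h the change was -0.23 (adjusted p 0.720), where the siFLuc library numbered 4, at 2.97 TPM, lay below all 3 siBOP1 libraries. In the libraries numbered 1 and 2 alone it was -0.47 there (adjusted p 0.0268), and -0.47 under the labelled number block (adjusted p 0.0251). Under the column number block it was not called. In IFN cells the change of SAMD9 was -0.02 at 8 h and -0.12 at 12 h, and the groups overlapped.

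For SLFN5 the change with BOP1 siRNA was -0.26 and -0.10 in mock cells at 8 h and 12 h and -0.14 and -0.07 in IFN cells (SE 0.20). For SAMD9L it was 0.19 and 0.04 in mock and 0.12 and -0.06 in IFN cells (SE 0.23). The adjusted p of SLFN11 and SLFN13 lay between 0.627 and 0.998 over the 4 comparisons. With an SE of 0.20 to 0.24, changes of the size of the SE were not detectable in either direction.

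No difference between the siRNA arms in the response to IFN was called. The interaction term, the IFN change in siBOP1 cells minus that in siFLuc cells, was 0.47 at 8 h and 0.11 at 12 h for SAMD9 (SE 0.30), 0.12 and 0.03 for SLFN5 (SE 0.29), and -0.06 and -0.10 for SAMD9L (SE 0.32). Every adjusted p of the 5 genes was 1, and 0% of all genes were called at 8 h and 0% at 12 h. At 8 h SAMD9 had the lower mock level with BOP1 siRNA given above, and its IFN levels overlapped (142 ± 20.2 TPM in siFLuc and 140 ± 21.7 TPM in siBOP1 cells, SD, n = 3).

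Between 8 h and 12 h of IFN none of the 5 genes passed the test in the fit of all 24 libraries without a block, and SLFN5 and SAMD9L differed in direction. Mean SLFN5 was higher at 12 h than at 8 h with IFN, by 0.55 in siFLuc (adjusted p 0.133) and 0.63 in siBOP1 cells (adjusted p 0.0961, limma). Under the column number block the adjusted p was 0.00232 and 0.0012, and in the libraries numbered 1 and 2 alone 0.0168 and 0.0126. Under the labelled number block it was 0.00975 and 0.00754. SLFN5 was called higher at 12 h in mock cells as well under the column number block (in siFLuc cells, adjusted p 0.0303, and in siBOP1 cells, 0.00776), where the mean rose from 14.3 to 19.0 TPM and from 11.8 to 17.6 TPM. Without a block 0 of 5 were called in mock cells of either arm, where 0.131% and 0.23% of all genes were. SAMD9L is among these 5 through its IFN libraries.

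SAMD9L had a lower mean at 12 h than at 8 h with IFN, with a log2 change of -0.42 in siFLuc (adjusted p 0.324) and -0.60 in siBOP1 cells (adjusted p 0.163, limma). The siFLuc value ranged from -0.13 without the 12 h library numbered 4 to -0.61 without the 8 h library numbered 4, and it was not called in either fit. All 3 siBOP1 libraries at 12 h (52.0 to 68.0 TPM) lay below all 3 at 8 h (73.7 to 103 TPM), while the siFLuc groups overlapped. The siBOP1 change was called under the column number block (adjusted p 0.0055), under the labelled number block (0.00761) and in the libraries numbered 1 and 2 alone (0.0168). The siFLuc change was called under the column number block (adjusted p 0.0323) and not in the other 2 fits. The log2 change of SAMD9 was -0.24 and -0.34, and it was not called in any fit. SLFN13 with IFN in siFLuc cells had an adjusted p of 0.108 between the times, and 0.0274 under the column number block. Among all genes 3.53% were called between the times in IFN siFLuc and 2.96% in IFN siBOP1 cells, against 0 of these 5 in both. The time by IFN term, which asks whether the IFN change differs between 8 h and 12 h, called 0 of 5 in each arm and 0.00623% and 0% of all genes in siFLuc and siBOP1 cells. Cells at 12 h had also spent 4 h more after transfection, and the time in IFN cannot be told apart from the time in culture within the IFN cells.

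Ordered by mean level, SAMD9 and SAMD9L were highest in the 2 IFN groups at 8 h, followed by the 2 IFN groups at 12 h, and neighbours in this order overlapped in their library ranges until the step from IFN to mock groups. SLFN5 had the opposite order of times, with the IFN groups at 12 h above those at 8 h and the mock groups at 12 h above those at 8 h. Its ranges overlapped between neighbours except at the step from IFN to mock groups and at the step from the mock groups at 12 h to those at 8 h. For SLFN11, SLFN12 and SLFN13 every neighbouring pair of groups overlapped.

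The genes whose levels were most like those of each member over the 24 libraries were taken from 11468 tested genes with a group mean of at least 5 TPM, by Pearson r of log2(TPM + 1). For SAMD9 they were ZNFX1, IFIT3 and IFIT2 (r = 0.998, 0.997 and 0.997), and for SAMD9L RSAD2, DTX3L and MYD88 (r = 0.998 each). For SLFN5 they were PDLIM1, STS and TNFSF14 (r = 0.972, 0.969 and 0.969). The values were lower for SLFN11, with ID3, SMCHD1 and CIR1 (r = 0.822, 0.816 and 0.806), and for SLFN13, with CCDC77, NSMCE4A and PRKCQ (r = 0.839, 0.807 and 0.798). The values for SAMD9, SAMD9L and SLFN5 rest on the gap between mock and IFN groups, which all libraries share, and no p is attached.

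Other genes of the same kind of defence were compared by lists. Of 20 further interferon-linked genes that cut RNA or control translation, 19 were called higher and 0 lower with IFN in siFLuc cells at 8 h, with a median change of 4.14 (log2) against -0.09 for all genes tested. IFIT1 and IFIT2, which bind mRNA caps or AU-rich RNA, changed most (8.72 and 8.39). The 1 gene not called there, named after its values were seen, was KHNYN (0.20, adjusted p 0.448). The counts were 20 of 20 in siBOP1 cells at 8 h, 19 at 12 h in siFLuc and 20 at 12 h in siBOP1 cells. With BOP1 siRNA 0 of the 20 were called in each of its 4 comparisons, where 0.66% to 2.16% of all genes were. A count of 0 among 20 genes is near that share. All 7 interferon signalling genes listed were called higher in the 4 IFN comparisons, led at 8 h in siFLuc cells by the transcription factor IRF7 (6.08) and the ISG15 protease USP18 (4.75). OAS2, among the 20 genes, had mock group means of at most 0.344 TPM and passed the filter through its IFN libraries. SOCS1, among the 7, had mock group means of 0.288 to 1.66 TPM. Both lists hold interferon-linked genes chosen with earlier results of these data known, so their counts with IFN are descriptions.

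Of 16 genes of tRNA cleavage, repair and maturation, 0 were called higher and 2 lower with IFN in siFLuc cells at 8 h, where 5.77% of all genes were called higher and 5.07% lower. Among the 2 was TSEN54, a subunit of the tRNA splicing endonuclease (-0.57, limma adjusted p 0.0260). In siBOP1 cells 0 were called at 8 h, and 1 was called higher and 1 lower at 12 h, the higher one being the RNase ANG (0.66, adjusted p 0.0386), named after its values were seen. None was called in siFLuc cells at 12 h. Their median was -0.06 in siFLuc cells at 8 h, beside -0.09 for all genes. In a list of this size such counts are not a result about the list.

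Of 12 genes that sense or rescue stalled ribosomes, 1 was called lower and 0 higher with IFN in siFLuc cells at 8 h. That gene, MAP3K20, the ZAK kinase that starts the ribotoxic stress response, fell by 0.56 there (limma adjusted p 0.00822). With IFN it also fell by 0.73 in siBOP1 cells at 8 h, and at 12 h it fell by 0.54 in siFLuc and fell by 0.59 in siBOP1 cells. At 8 h in siBOP1 cells 1 was higher and 3 lower, at 12 h in siFLuc cells 1 and 2, and at 12 h in siBOP1 cells 0 and 2. Over these 4 comparisons 5.77% to 7.17% of all genes were called higher and 5.07% to 9.11% lower, and nothing particular to the list is read from its counts. Besides MAP3K20 these were the rescue factor PELO, higher at 8 h in siBOP1 and 12 h in siFLuc cells (0.37 and 0.55), its partner HBS1L, lower in 3 comparisons (-0.58, -0.44 and -0.76), and the kinase EIF2AK4, lower at 8 h in siBOP1 cells (-0.51), all named after their values were seen. Of 10 partners and substrate enzymes, among them PDE3A of the SLFN12 complex and the RPA subunits that SLFN11 binds, 0 were called in siFLuc cells at 8 h. Of these the single-strand DNA binding subunit RPA1 (-0.48 and -0.54) and FARSB, a subunit of phenylalanyl-tRNA synthetase (-0.44 and -0.50) were called lower in siBOP1 cells at 8 h and 12 h, and FARSB also in siFLuc cells at 12 h (-0.38). They too were named after their values were seen, and counts of this size among 10 genes are likewise read as no result about the partners.

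Of the 14 other protein-coding genes within 250 kb of the members, 7 passed the filter, and 0 of the 7 were called in each of the 4 IFN comparisons. With 5.07% to 9.11% of all genes called in a direction, a count of 0 among 7 genes is near the background. In siFLuc cells at 8 h their changes lay between -0.31 (NLE1, a ribosome assembly factor) and 0.11 (AP2B1, a subunit of the AP-2 adaptor of endocytosis). HEPACAM2, the nearest gene to SAMD9L other than SAMD9, had group means of at most 0.037 TPM.

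The members' own codons were counted in the longest coding sequence of each (GENCODE 29), because SLFN11 is known for its action on mRNAs that use TTA. In SAMD9, 32.9% of 1589 codons end in G or C, and 4.29% of the tested genes with a complete coding sequence (12591) have a lower value. In SAMD9L the value is 36.2% of 1584 codons, with 10.0% of tested genes lower. The Schlafen genes lie nearer the middle, at 42.7% for SLFN12, 48.6% for SLFN5, 48.8% for SLFN13 and 50.4% for SLFN11. The median over tested genes is 58.8%, and over the 819 of these called higher with IFN in siFLuc cells at 8 h it is 58.3%. TTA makes up 20.8 of 1000 codons in SLFN12, 20.2 in SAMD9L, 16.4 in SAMD9, 15.5 in SLFN11, 14.6 in SLFN5 and 12.3 in SLFN13, against a median of 5.36 over tested genes. All 6 lie above that median, with 74.9% of tested genes lower than SLFN13 and 91.7% lower than SLFN12, the ends of their range. Over the 819 genes called higher with IFN the median is 5.38. These are properties of the genes, and protein was not measured.

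**Figure D4:**
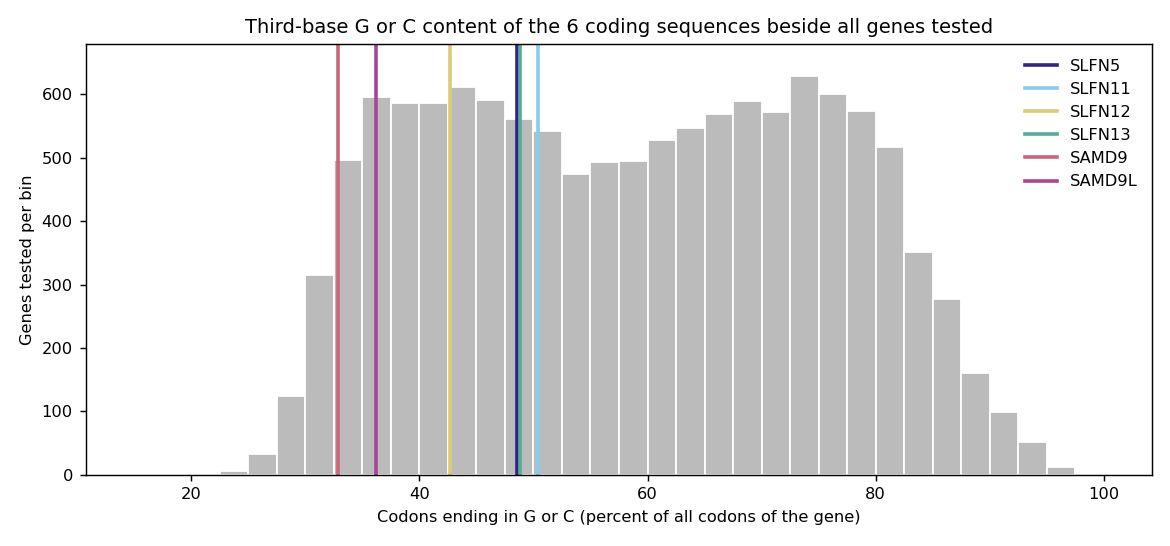
Number of tested genes (y axis, 12591 genes) by the percentage of their codons that end in G or C (x axis), with a vertical line for each of the 6 genes. SAMD9 (32.9%) and SAMD9L (36.2%) lie in the lower part of the distribution and the 4 Schlafen genes between 42.7% and 50.4%, all below the median of 58.8%.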

How the data were processed

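Per the labels, libraries came from a stranded mRNA kit. The authors deposited a table of TPM values, each column summing to 1000000; depth, aligner, genome build and annotation are not given in the sources used here, so no counting interval can be given. Column names matched 16 columns to a labelled replicate and 8, numbered 4, to their group only. Genes that reached 1 TPM in 3 or more libraries (16062 of 60609 rows) were tested on log2(TPM + 1) with limma 3.58.1 (R 4.3.3, trend), 8 group means over 24 libraries, 16 comparisons, Benjamini-Hochberg adjustment over all genes within a comparison. The fit was tested on simulated data. Alternatives changed the pseudocount (0.1), filter (none, or a mean of 5 TPM), scaling (median of ratios, quantile), variance model and samples, left out each library, or kept the number as a block. Deviations of same-numbered columns correlated at 0.115 to 0.508, but for the labelled numbers 1 and 2 alone at 0.0910 to 0.156 at 8 h and -0.01 to 0.0850 at 12 h, so at 12 h the pairing rests on the columns numbered 4, and blocked values stand beside results they change. Like genes were the 3 of highest r per member, and 2 genes per list with the largest called change were named. Some list genes are not reported here by name. The members and lists were chosen with earlier results of these data known. Motifs and codons were read from RefSeq and GENCODE 29, whose gene versions differ from the table's for 4 of the 6 genes.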

Additional observations from a re-analysis of the deposited data

How the results depend on the processing

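The IFN calls of SLFN5, SAMD9 and SAMD9L held in all 4 comparisons under every alternative run. No call of a member was lost in any alternative that tested it. Of the fold changes counted here, 665 kept direction and side of the threshold and 25 passed it only in the alternative. The sign changed in 40, none of them called as reported. For the IFN comparisons these counts take in every member tested. For BOP1 siRNA, the interaction and the times within IFN cells they take in SLFN5, SAMD9 and SAMD9L only. The other fold changes are left out. Among them are the 3 further calls between the times under the column number block, given above by adjusted p. These are SLFN5 in mock siFLuc and mock siBOP1 cells and SLFN13 in IFN siFLuc cells. With the replicate block, BOP1 siRNA gave 1 call at 8 h and 1 at 12 h among mock cells, and between the times 1 in IFN siFLuc and 2 in IFN siBOP1 cells. The libraries numbered 1 and 2 alone gave the same 4 counts. With the column number as a block, 1 was called for BOP1 siRNA in mock cells at 8 h, and between the times 1 in mock siFLuc, 1 in mock siBOP1, 3 in IFN siFLuc and 2 in IFN siBOP1 cells. The share of all genes called under these alternatives is not given here, so the counts are not read as a result about the members. The cause was not tested. SAMD9L with BOP1 siRNA in mock cells at 12 h turned to -0.0077 after quantile normalization, and its interaction at 8 h to 0.0031 with the replicate block and in the libraries numbered 1 and 2.

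Leaving out each library in turn gave these ranges where a sign changed among the fold changes counted above. Ranges of the other fold changes are not given here. With BOP1 siRNA in IFN cells at 8 h they were -0.3166 to 0.0358 (SLFN5), -0.1433 to 0.1076 (SAMD9) and -0.0641 to 0.2622 (SAMD9L), and at 12 h -0.2638 to 0.0653, -0.3668 to 0.0155 and -0.3462 to 0.0976 in the same order. In mock cells at 12 h they were -0.2298 to 0.0056 (SLFN5) and -0.1466 to 0.1854 (SAMD9L). The interaction ranged over -0.0548 to 0.2975 (SLFN5) and -0.2514 to 0.075 (SAMD9L) at 8 h, and over -0.167 to 0.1621 (SLFN5), -0.1324 to 0.372 (SAMD9) and -0.3818 to 0.0864 (SAMD9L) at 12 h. SAMD9 at 12 h against 8 h in IFN siFLuc cells ranged over -0.3746 to 0.0069.

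A mean of 5 TPM as the filter removed SLFN11 and SLFN13, and SLFN12 entered only with no filter. The unknown depth limits the low genes most.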
